A study of Mus musculus with 6 samples.

Results

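The transcripts described here are those of B cells and plasma cells, measured in isolated regulatory T cells (Treg). The members were a list of 32 genes given by symbol, and 30 of them had a probe set with 1 gene symbol, out of 12393 genes so measured on the array. For each gene the brightest probe set, the one with the highest mean over the 6 arrays, was used. Lyn and Mzb1 were not analysed here. The cells were the CD4+CD25+ fraction of C57BL/6 mice, separated with magnetic beads. Of the samples, 3 came from HDAC9-/- mice, which lack histone deacetylase 9, and 3 from wild type mice. Total RNA of each sample was hybridised to 1 array, and the values are log2 expression values. The deleted exons, the age of the mice and whether each sample came from its own mouse were not found in the labels, so p-values here reflect the spread between samples, which may be technical. The study addresses how histone deacetylases control Foxp3+ Treg, and the comparison here asks how the signal of B lineage genes differed between the genotypes.

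B cells recognise antigen with a membrane immunoglobulin that signals through CD79A and CD79B to the kinases LYN, BLK, SYK and BTK and the adaptor BLNK. Their identity depends on transcription factors such as PAX5 and EBF1. Plasma cells, into which B cells mature, largely shut down that programme and secrete antibody, with the joining chain linking the units of IgM and IgA. Neither cell type is a T cell, so in a CD4+CD25+ fraction these transcripts can come from other cells that magnetic separation leaves behind. Some members are also used outside the B lineage: Prdm1 is active in effector Treg, Syk and Btk in myeloid cells, and Cd24a in granulocytes and red cell precursors.

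The fraction carried the markers of its label, Cd4 and Il2ra (CD25), on every array. Cd4 read 9.75 to 9.97, Il2ra 9.34 to 9.54 and Cd3d, a chain of the T cell receptor complex, 12.46 to 12.60. Of the Treg markers, Foxp3 read 10.29 to 10.44 and Ctla4 11.11 to 11.45. Ikzf2, also a Treg marker, was dim at 4.36 to 5.29, where the median of all probe sets was 5.76. Wild type replicate 3 correlated least with the other arrays (mean 0.991 against 0.994 to 0.996). For Gapdh, the 3-prime control probe set exceeded the 5-prime one, a gap that moves with RNA integrity, by 0.026 to 0.11 for wild type and 0.15 to 0.28 for HDAC9-/- samples. The same gap for actin overlapped, at 0.33 to 0.46 for wild type and 0.42 to 0.60 for HDAC9-/- samples. The part of RNA integrity in the results was not tested.

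No member gene passed the threshold, an adjusted p below 0.05 over all 22626 probe sets (0 of 30, limma), where 0.00807% of all genes passed by their brightest probe set. At an unadjusted p below 0.05 there were 5 members, 3 higher and 2 lower in HDAC9-/- samples, against 6.12% of all genes higher and 2.62% lower (8.74% in all). Jchain and Ighm, which encode parts of secreted antibody, read lower in all 3 HDAC9-/- samples than in any wild type sample. Of 27 probe sets for other immunoglobulin segments, 22 had negative differences, where 47.8% of all probe sets did, and 7 of these had no overlap, against 6.04%. Among the B cell members, 2 of 4 receptor genes and 6 of 10 surface genes had positive differences, against 54.0% of all genes. So had 4 of 4 signalling genes and 6 of 7 transcription factors. For many of these members HDAC9-/- replicate 1 was high and replicate 3 low. In bulk samples, fewer cells of a type and less RNA per cell cannot be told apart.

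Promoter sequence for 23 of the 30 members was given by RefSeq (build GRCm38.p6), as windows from 250 bases before to 50 bases after the annotated start. They are shown for their letters alone, and no link to the array values was tested. The octamer ATTTGCAT, or its reverse complement ATGCAAAT, is the site through which Oct factors and their B cell coactivator, the product of the member Pou2af1, act on immunoglobulin promoters. It was found in 2 of the 28 windows of member genes, those of Blnk and Vpreb3, and in 1.74% of all 32851 windows. A core recognised by EBF factors, TCCC and GGGA with any 2 bases between, was found in 1 member, Cd22, and in 0.904% of all windows. A core of sites for MEF2 factors, to which class IIa deacetylases such as HDAC9 bind, is CTA and TAG with any 4 bases between; it was found in 1 member, Tnfrsf17, and in 3.69% of all windows. The letters GAGGAAGT, of the kind bound by ETS factors such as the member Spib, were found in 1 member, Cd72, and in 3.20% of all windows. Both strands were searched, and no match overlapped another. The windows below belong to Jchain, the member with the largest difference, to Cd79a, a receptor subunit, and to the members with an octamer or EBF match, whose letters are in capitals. The Vpreb3 match began 45 bases before the start, the Blnk match 130 and the Cd22 match 49. A match describes these letters in this window and nothing more.
Jchain promoter (chr5:88527848-88528147, minus strand): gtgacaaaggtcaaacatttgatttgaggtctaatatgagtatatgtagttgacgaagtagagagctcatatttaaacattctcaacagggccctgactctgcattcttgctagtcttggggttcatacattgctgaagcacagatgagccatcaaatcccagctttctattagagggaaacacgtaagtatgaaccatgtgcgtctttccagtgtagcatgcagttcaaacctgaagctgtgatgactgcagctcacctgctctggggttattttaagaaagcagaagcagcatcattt
Cd79a promoter (chr7:24897247-24897546, plus strand): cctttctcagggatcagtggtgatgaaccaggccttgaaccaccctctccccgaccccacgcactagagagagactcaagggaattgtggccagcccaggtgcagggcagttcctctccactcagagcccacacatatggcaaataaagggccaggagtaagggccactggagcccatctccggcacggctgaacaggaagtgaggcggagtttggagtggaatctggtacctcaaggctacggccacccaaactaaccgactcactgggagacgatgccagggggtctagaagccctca
Blnk promoter (chr19:40994172-40994471, minus strand): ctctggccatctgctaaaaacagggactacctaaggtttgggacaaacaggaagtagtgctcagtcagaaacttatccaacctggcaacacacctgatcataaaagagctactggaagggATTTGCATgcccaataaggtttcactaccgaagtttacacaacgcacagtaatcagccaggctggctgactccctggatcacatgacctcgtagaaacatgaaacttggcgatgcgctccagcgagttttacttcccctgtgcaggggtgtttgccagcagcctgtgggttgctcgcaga
Vpreb3 promoter (chr10:75948050-75948349, plus strand): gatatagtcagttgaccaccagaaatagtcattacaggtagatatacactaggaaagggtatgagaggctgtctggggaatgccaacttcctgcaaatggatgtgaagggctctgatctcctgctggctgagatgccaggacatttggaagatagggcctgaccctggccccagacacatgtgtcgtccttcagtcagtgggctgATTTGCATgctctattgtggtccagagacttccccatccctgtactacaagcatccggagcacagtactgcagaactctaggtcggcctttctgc
Cd22 promoter (chr7:30878979-30879278, minus strand): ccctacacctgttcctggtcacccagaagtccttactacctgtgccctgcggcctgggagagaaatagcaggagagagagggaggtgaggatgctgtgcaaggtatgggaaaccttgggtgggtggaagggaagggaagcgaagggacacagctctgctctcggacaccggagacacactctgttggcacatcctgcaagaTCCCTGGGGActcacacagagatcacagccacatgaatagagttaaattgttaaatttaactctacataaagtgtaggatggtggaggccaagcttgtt

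Jchain, the joining chain of IgM and IgA, had the largest difference of the members. It read 11.99, 11.93 and 12.04 on the log2 scale in the wild type samples, in the order of their replicate numbers, and 11.58, 11.39 and 11.59 in HDAC9-/- replicates 1 to 3. Every HDAC9-/- sample lay below every wild type sample, and the gap between the groups was wider than the spread within either. The difference was -0.47, with an SE of 0.081, which is 1.38-fold lower (limma, adjusted p = 0.337; 95% confidence interval -0.66 to -0.27). When the variance prior was fitted against brightness and made robust, Jchain passed (adjusted p = 0.0255), and its adjusted p over all alternatives ran from 0.0255 to 0.795. The groups did not overlap for 5 of the 30 members, 3 lower and 2 higher, against 5.70% of all genes lower and 12.5% higher (18.2% in all).

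Ighm, the constant part of the IgM heavy chain, was the other antibody gene among the members. Its brightest probe set read 13.92, 13.67 and 13.76 in wild type and 13.63, 13.44 and 13.62 in HDAC9-/- replicates 1 to 3. The groups did not overlap, but wild type replicate 2 (13.67) and HDAC9-/- replicate 1 (13.63) were close. The difference was -0.22 with a standard error of 0.10 (adjusted p = 0.572). Ighm has 11 probe sets, which did not follow 1 pattern. The next brightest read 12.82, 12.51 and 12.66 in wild type and 12.44, 12.22 and 12.38 in HDAC9-/- samples, with a difference of -0.32 and no overlap. A dimmer one read 8.74, 8.67 and 6.61 in wild type and 5.92, 7.68 and 7.96 in HDAC9-/- samples, so that wild type replicate 3 and HDAC9-/- replicate 1 stood below the other 4. In another, by contrast, values ran from 9.17 to 11.80 with HDAC9-/- replicate 3 highest. Over the 11 probe sets 9 differences were negative and 2 positive, from -0.82 to 0.85. Probe sets annotated to Ighm can hold variable segment sequence, and near-identical segments share probes, so these signals are uncertain as to gene.

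**Figure D1:**
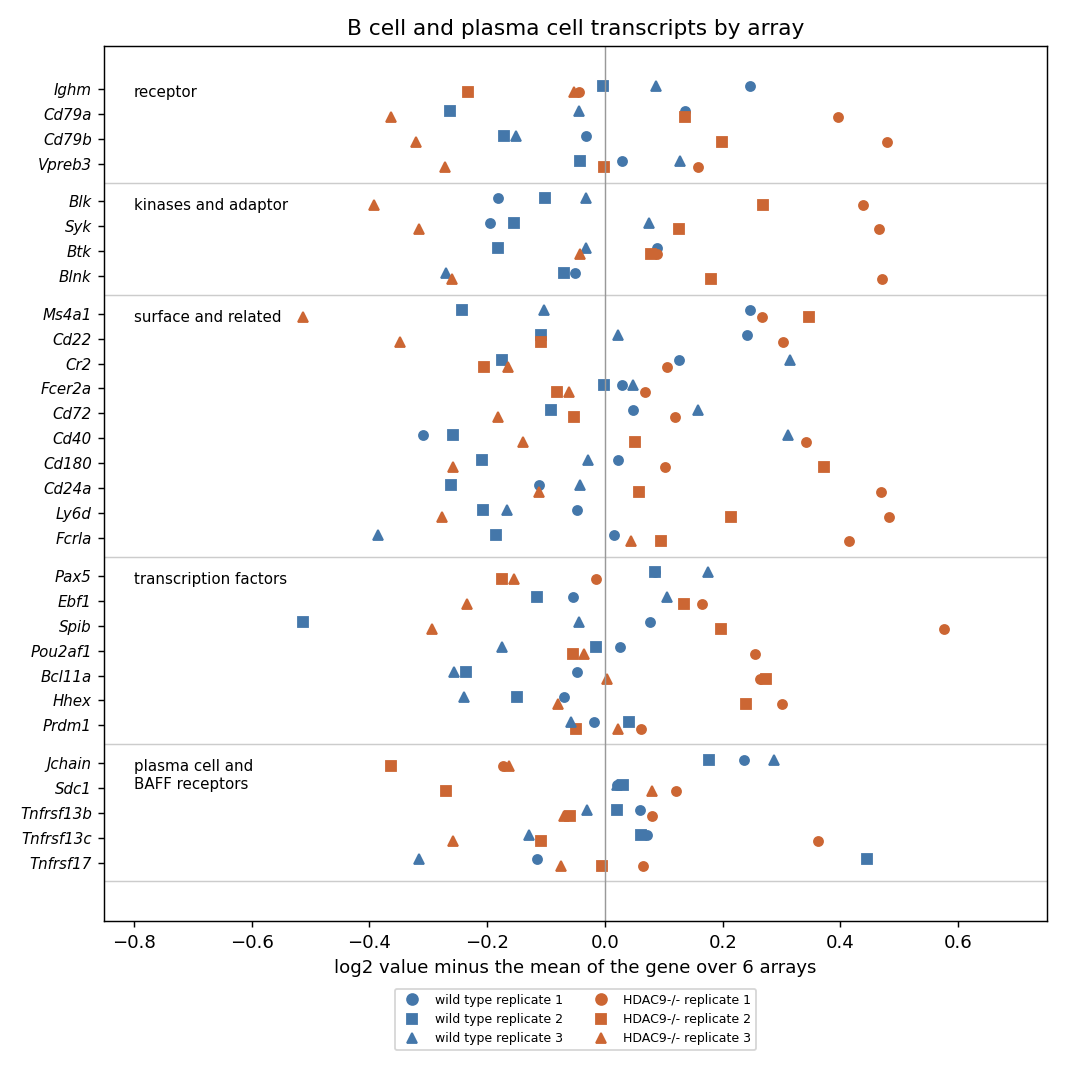
Log2 value of each member gene on each array, minus the mean of that gene over the 6 arrays (x axis), with genes in rows by role; colour marks genotype and shape the replicate. Jchain and Ighm have all HDAC9-/- points to the left of the wild type points, while for most other genes HDAC9-/- replicate 1 lies farthest to the right and the genotypes overlap.

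The receptor subunits Cd79a and Cd79b had differences of the opposite sign to Ighm, smaller than the spread among the HDAC9-/- samples. Cd79a, the alpha subunit, read 7.56, 7.16 and 7.38 in wild type and 7.82, 7.56 and 7.06 in HDAC9-/- replicates 1 to 3. Cd79b, the beta subunit, had a wild type mean of 8.05 ± 0.075 (SD, n = 3), with a highest value of 8.14, and read 8.65, 8.37 and 7.85 in HDAC9-/- samples. For both genes the highest and the lowest array were HDAC9-/- samples, replicate 1 and replicate 3, and wild type lay between them. The difference of Cd79a was 0.11 (95% confidence interval -0.36 to 0.59) and that of Cd79b 0.23 (-0.22 to 0.69). Without HDAC9-/- replicate 1 they were -0.055 and 0.056, and without replicate 3 they were 0.32 and 0.45. Vpreb3, a protein of the receptor assembly pathway, differed by -0.075.

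The signalling members had positive differences in 4 of 4 genes, where 54.0% of all genes were positive. Their median was 0.20, and none reached an unadjusted p below 0.05. Blnk, the adaptor that links SYK to its effectors, read 6.73, 6.71 and 6.51 in wild type and 7.25, 6.96 and 6.52 in HDAC9-/- samples. HDAC9-/- replicates 1 and 2 were above all wild type samples and replicate 3 was level with the lowest. The Src family kinase gene Blk differed by 0.20, Syk by 0.19 and Btk by 0.083. A dimmer Syk probe set did not overlap, with wild type samples at 5.43 to 5.56 and HDAC9-/- samples at 5.70 to 5.92 (difference 0.30, adjusted p = 0.442), while the dimmest one differed by -0.15.

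Among the surface and related molecules 6 of 10 genes had positive differences, against 54.0% of all genes, with a median of 0.11. Fcrla, an intracellular Fc receptor-like protein of B cells, was the 1 gene of this role whose groups did not overlap. It read 5.45, 5.25 and 5.05 in wild type and 5.85, 5.53 and 5.48 in HDAC9-/- samples, so that HDAC9-/- replicate 3 was barely above wild type replicate 1. It differed by 0.37 (standard error 0.14; limma, adjusted p = 0.549), and its other probe sets differed by 0.11 and 0.23. Ms4a1, which encodes CD20, read 8.16, 7.67 and 7.81 in wild type and 8.18, 8.26 and 7.40 in HDAC9-/- samples. HDAC9-/- replicates 1 and 2 and wild type replicate 1 were high, and HDAC9-/- replicate 3 was the lowest array. Its difference was 0.065 (95% confidence interval -0.52 to 0.65), and leaving out single arrays moved it from -0.092 to 0.34.

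Cd24a, a glycoprotein anchored to the membrane, read 8.63, 8.48 and 8.70 in wild type and 9.21, 8.80 and 8.63 in HDAC9-/- samples. The difference was 0.28, but 0.12 without HDAC9-/- replicate 1. Its 3 probe sets had differences of 0.27 to 0.32, and in the dimmest of them the groups did not overlap. Cd72, an inhibitory receptor, read 8.32, 8.18 and 8.43 in wild type and 8.39, 8.22 and 8.09 in HDAC9-/- samples; the difference, -0.077, lay within the spread and ran from -0.15 to -0.0061 with single arrays left out. The inhibitory lectin gene Cd22 differed by -0.10, the complement receptor gene Cr2 by -0.18 and Fcer2a, which encodes CD23, by -0.049. A dimmer Fcer2a probe set (mean 3.83) differed by -0.25, with groups that overlapped (limma, adjusted p = 0.557). Ly6d, an early marker of B cell commitment, differed by 0.28, Cd40, the receptor for T cell help, by 0.17, and the Toll-like receptor homologue Cd180 by 0.15. The Cr2 probe set (mean 4.28) and the brightest Fcer2a probe set (mean 3.90) were dim, where the median of all probe sets was 5.76. The Fcer2a mean was below the lower quartile of all probe sets (3.97), so signal above background was not shown. RMA pulls dim values toward a common background, so a difference there can be understated or can be noise.

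The transcription factors held 3 of the 5 members at an unadjusted p below 0.05: Bcl11a, Hhex and Pax5. Of all genes, 8.74% reached such a p in either direction. The probe sets of these 3 factors were below the median of all probe sets (5.76), with means of 4.80, 5.64 and 4.03. With dim probe sets left out, only 17 members were tested and 2 reached such a p. The share of all genes under that filter was not computed. The filter removed these 3 factors and Fcrla, so of the 5 only Jchain could be among the 2. Bcl11a, a zinc finger factor needed for early B cell development, read 4.75, 4.56 and 4.54 in wild type and 5.06, 5.07 and 4.80 in HDAC9-/- samples. All HDAC9-/- samples were higher, by 0.37 on average (standard error 0.10; limma, adjusted p = 0.448), but its other probe set differed by -0.0028. Hhex, a homeobox factor of progenitors and B cells, read 5.57, 5.49 and 5.40 in wild type and 5.94, 5.88 and 5.56 in HDAC9-/- samples. Only HDAC9-/- replicate 3 reached into the wild type range, and the difference was 0.31 with a standard error of 0.11 (adjusted p = 0.549).

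Pax5, the factor that maintains B cell identity, had the opposite sign. It read 4.11, 4.11 and 4.20 in wild type and 4.01, 3.85 and 3.87 in HDAC9-/- samples, with no overlap. The difference was -0.23 (SE 0.074) (limma, adjusted p = 0.508). The Pax5 mean of 4.03 was close to the lower quartile of all probe sets (3.97), so signal above background was not shown, and the same holds for Ebf1 (mean 3.98, difference 0.046). Spib, an ETS factor of B cells and plasmacytoid dendritic cells, differed by 0.32, with wild type samples at 6.61 to 7.20 and HDAC9-/- samples at 6.83 to 7.70. Pou2af1, the octamer coactivator, differed by 0.11. Prdm1, which encodes the plasma cell factor BLIMP-1, differed by 0.022 with a 95% confidence interval of -0.14 to 0.18.

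The plasma cell and BAFF receptor genes other than Jchain differed little. Sdc1, the plasma cell surface marker CD138, read 5.33, 5.34 and 5.33 in wild type and 5.43, 5.04 and 5.39 in HDAC9-/- samples. The HDAC9-/- samples lay on both sides of the nearly identical wild type values (difference -0.046, but 0.079 without HDAC9-/- replicate 2). Tnfrsf13b, which encodes the receptor TACI, read 8.95, 8.91 and 8.86 in wild type and 8.97, 8.83 and 8.82 in HDAC9-/- samples. Its difference of -0.030 had a 95% confidence interval of -0.20 to 0.14 and ran from -0.080 to -0.0019 with single arrays left out. Tnfrsf17, the plasma cell receptor BCMA, differed by -0.0089 and Tnfrsf13c, the BAFF receptor, by 0.00030. Sdc1, Tnfrsf17 and Tnfrsf13c were dimmer than the median of all probe sets (5.76), with means of 5.31, 5.07 and 5.57. Their small differences do not show that these genes were unchanged.

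**Figure D2:**
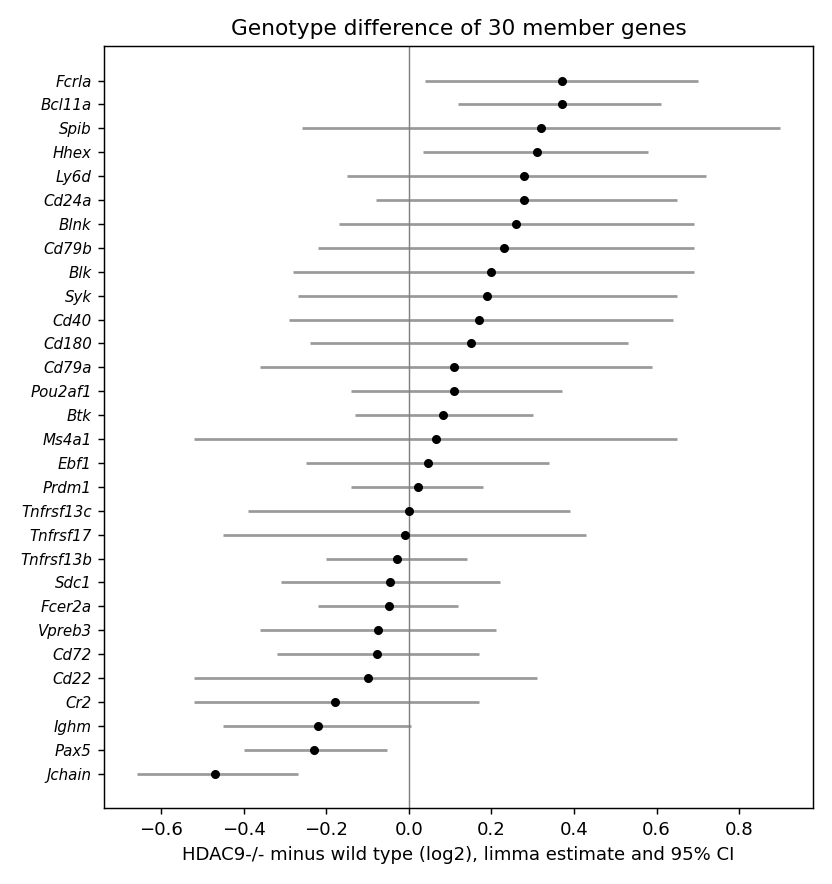
Difference of each of the 30 member genes, as log2 HDAC9-/- value minus wild type (x axis), as limma estimate (point) with its 95% confidence interval (bar), sorted by size. Jchain, at -0.47, stands apart at the low end; Fcrla and Bcl11a, at 0.37, are the highest, and most intervals span 0.

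Over the 30 members the median difference was 0.074, with 19 positive and 11 negative, while over all genes it was 0.013 with 54.0% positive and 46.0% negative. The median was -0.014 without HDAC9-/- replicate 1, 0.039 without wild type replicate 2 and 0.16 without HDAC9-/- replicate 3. It was 0.10 over the 28 members other than Ighm and Jchain.

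The HDAC9-/- samples differed more among themselves than the genotypes differed. A score for the members, the mean over genes of the value minus the mean of that gene over the 6 arrays, was 0.019, -0.10 and -0.026 over the wild type samples by replicate number and 0.24, 0.040 and -0.18 in HDAC9-/- replicates 1 to 3. HDAC9-/- replicate 1 was highest and replicate 3 lowest, with all wild type samples between them. HDAC9-/- replicate 1 was the highest array for 21 of 30 members, and replicate 3 was the lowest for 13 and the highest for 0. Replicate 1 exceeded the mean of the other HDAC9-/- samples for all 30 members, by a median of 0.29, where 58.3% of all genes did. The value of replicate 3 was below the mean of replicates 1 and 2 for 26 of 30 members, where 56.5% of all genes were, and the median gap was -0.34. Without replicate 3, 11 members were higher at an unadjusted p below 0.05, against 4.83% of all genes, and 14 were higher without overlap, against 18.6%. None then passed the adjusted threshold. Replicate 3 was below both other HDAC9-/- samples for 22 of 30 members, so leaving it out raises the HDAC9-/- means of those members. The larger counts without it partly restate that order and are not separate evidence of a genotype difference. The count at an unadjusted p below 0.05 in either direction was 12 of 30 without replicate 3, against 6.33% of all genes. It was 3 of 30 without HDAC9-/- replicate 1, against 5.83%, and 3 of 30 without replicate 2, against 6.21%. Higher without overlap were 2 members without replicate 1, against 15.8% of all genes, and 3 without replicate 2, against 17.7%.

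Markers of other antigen-presenting cells had the same order over the HDAC9-/- samples as the B cell members, but not over the wild type samples. MHC class II genes, which B cells, dendritic cells and macrophages share, had positive differences for 7 of 8 genes with a median of 0.23, where 54.0% of all genes were positive, and none passed. Their score was -0.21, -0.13 and 0.081 in wild type and 0.29, 0.13 and -0.16 in HDAC9-/- replicates 1 to 3. Myeloid markers had positive differences for 17 of 17 genes, none past the threshold, with scores of -0.42 to -0.054 in wild type and 0.37, 0.31 and -0.10 in HDAC9-/- replicates 1 to 3. Cytotoxic markers (CD8 T and natural killer cells) scored -0.21 to 0.059 in wild type and 0.22, 0.15 and -0.064 in HDAC9-/- samples. In each of these lists HDAC9-/- replicate 1 was highest and replicate 3 lowest of its group, as for the B cell members. The order was not particular to these lists. Red cell and platelet genes had it (0.068, -0.041 and -0.12). So had B cell precursor genes (0.20, 0.00086 and -0.15) and further B cell genes (0.041, 0.022 and -0.079). The T cell identity and Treg genes did not. T cell identity genes spanned only -0.032 to 0.055 over all arrays, and the Treg genes -0.14 to 0.080. What share myeloid, cytotoxic or other antigen-presenting cells had in the B cell signal was not tested.

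**Figure D3:**
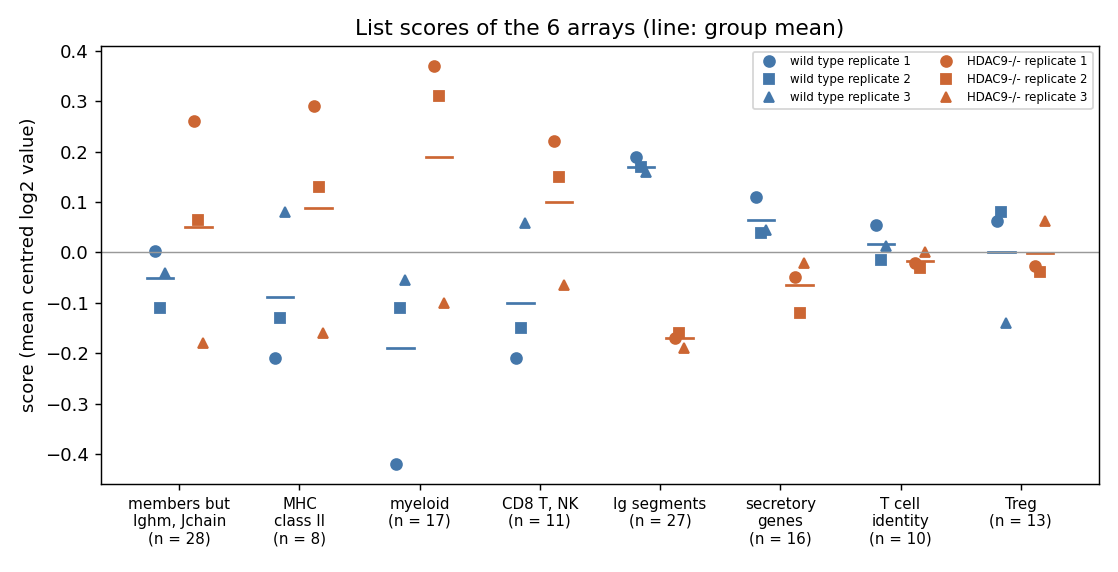
Score of each gene list on each array (y axis, mean log2 value centred per gene), with points for single arrays and lines for group means. The members other than Ighm and Jchain, MHC class II, myeloid and cytotoxic lists show, within the HDAC9-/- group, replicate 1 highest and replicate 3 lowest, whereas the immunoglobulin segments separate the genotypes, with wild type samples at 0.16 to 0.19 and HDAC9-/- samples at -0.19 to -0.16.

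Further B cell genes gave no common direction. Of 14 genes measured from a list of 20, which holds coreceptors, adaptors and B cell factors, the difference was positive for 6 and negative for 8 (median -0.060). Irf8, a factor shared by B cells and dendritic cells, was the 1 gene of the 14 at an unadjusted p below 0.05, a share near that of all genes (8.74%), with a difference of 0.34 (limma, adjusted p = 0.495). Of the MHC class II genes, H2-Oa (0.30) and H2-DMa (0.28), which tune peptide loading, had the smallest p-values.

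Immunoglobulin segments mostly had negative differences. Of 27 probe sets annotated to 1 segment other than Ighm, 22 had negative differences and 5 positive, with a median of -0.20, where 47.8% of all probe sets were negative and 52.2% positive. None passed the adjusted threshold; 9 were lower and 0 higher at an unadjusted p below 0.05, against 3.23% of all probe sets lower and 5.55% higher (8.78% in all). Their groups did not overlap for 7, all lower, against 6.04% lower, 11.0% higher and 17.0% in all. The score was 0.19, 0.17 and 0.16 in wild type and -0.17, -0.16 and -0.19 in HDAC9-/- replicates 1 to 3, so HDAC9-/- replicate 1, highest for the B cell members, was not high here. Leaving out any 1 array gave medians of -0.27 to -0.24, while the median was -0.45 with dim probe sets left out and -0.31 with array weights. Of the 27 probe sets, 14 were at or above the median brightness of all probe sets. These probe sets share sequence and cells, so they are not independent of each other.

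Igkv6-14, a kappa variable segment, had the largest difference of these probe sets. It read 8.54, 8.29 and 9.78 in wild type and 6.83, 6.68 and 7.00 in HDAC9-/- samples. Every wild type sample exceeded every HDAC9-/- sample by more than 1 log2 unit. The difference was -2.03 (SE 0.36), or 4.08-fold lower (limma, adjusted p = 0.339). Igkv6-15 (-0.53) and Igkv8-30 (-0.42) were lower without overlap. Igkv6-15 was dim, with a mean of 4.25 where the lower quartile of all probe sets was 3.97. For Igkv8-30, wild type samples read 12.38 to 12.63 and HDAC9-/- samples 12.00 to 12.22. For Igha, the constant part of IgA, 3 probe sets differed by -0.53 to -0.61, and wild type replicate 3 overlapped the HDAC9-/- range in each. Near-identical variable segments share probes, so a signal may belong to a neighbouring segment.

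**Figure D4:**
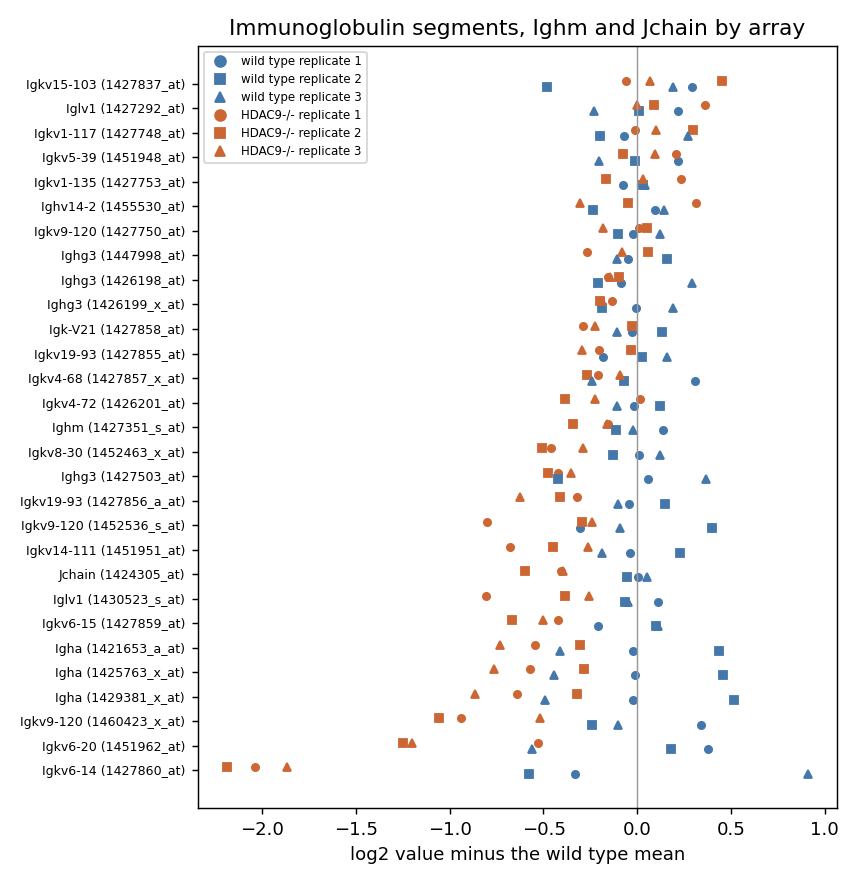
Log2 value on each array minus the wild type mean (x axis) for 27 immunoglobulin segment probe sets and the brightest Ighm and Jchain probe sets (rows, with probe set names), sorted by genotype difference; colour marks genotype and shape the replicate. Most rows have HDAC9-/- points left of 0, with Igkv6-14 farthest at -2.03, and the 5 uppermost rows have a positive difference.

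Genes of the secretory machinery that plasma cells use heavily had mostly negative differences as well. Of 16 genes 13 had negative differences, with a median of -0.14, where 46.0% of all genes were negative. None passed, and 3 were lower at an unadjusted p below 0.05, against 2.62% of all genes. The disulfide isomerase gene Txndc5 read 8.33 to 8.50 for wild type and 8.05 to 8.17 for HDAC9-/- samples (difference -0.32, limma, adjusted p = 0.422). The chaperone gene Hsp90b1 differed by -0.31 and Tent5c, an enzyme that stabilises immunoglobulin mRNA, by -0.20. Xbp1, the factor that drives the secretory programme, differed by -0.18 (adjusted p = 0.596). The wild type scores were 0.038 to 0.11 and the HDAC9-/- scores -0.12 to -0.022. T cells use this machinery too, and which cells carried the signal was not tested. The groups that had the lower immunoglobulin and secretory scores were also those with the wider Gapdh difference, which did not overlap between the genotypes either, while the actin difference did overlap.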

How the data were processed

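Total RNA of 6 samples (3 HDAC9-/- and 3 wild type) was labelled with biotin and hybridised to 1 expression array each. The deposited table holds the authors' log2 values per probe set. RMA is the method named in the submitters' processing notes, without a version. RMA corrects background, normalizes arrays to each other and summarises the probes. Array number limits the precision.

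The 64 control probe sets of 22690 were left out, and 22626 were tested with no brightness filter. Symbols of the platform annotation were updated through the Entrez identifier for 20351 probe sets. The model was limma's (version 3.58.1, R 4.3.3; lmFit, eBayes, genotype alone; Benjamini-Hochberg over all probe sets), after a check on simulated data. The members and lists were chosen with earlier results of these data known.

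Each member is named; single values are given for members without overlap, with an unadjusted p below 0.05, among the 6 with the highest mean, or defining the cell type, and for Blnk, which was chosen after its values were seen. In other lists, up to 4 genes with the smallest p are named; of the immunoglobulin segments 3 of those 4 are given, and Igha was chosen after its values were seen. Alternatives were renormalization, aligned medians, a dim filter, other priors, array weights, the replicate block, left-out arrays and the mean of all probe sets. Figures were drawn with matplotlib 3.10.9.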

Additional observations from a re-analysis of the deposited data

How the results depend on the processing

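The number of probe sets past the adjusted threshold was 3 and depended on the fit. It was 15 with the trended and robust prior, 6 with array weights, 1 with probe sets averaged by gene and 5 at an adjusted p below 0.10, and it ran from 0 to 6 when single arrays were left out. Under the replicate block it was 0. The count of members past the threshold was 0 and became 1 (Jchain) with the trended and robust prior; 5 members had an unadjusted p below 0.05. It was 0 under the other alternatives, and with dim probe sets left out only the 17 members at or above the median were tested. The replicate numbers were not shown to pair the samples: deviations from the group means correlated at 0.0365, 0.0991 and -0.249 between same-numbered samples.

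The difference of Cd79a was -0.055 without HDAC9-/- replicate 1 and reached 0.32 when other arrays were left out. That of Ms4a1 was -0.042 without wild type replicate 2, -0.051 and -0.092 without HDAC9-/- replicates 1 and 2, and at most 0.34. That of Sdc1 was 0.079 without HDAC9-/- replicate 2 and otherwise as low as -0.12. The other 10 members tested this way, among them Jchain (-0.50 to -0.40) and Ighm (-0.28 to -0.15 with single arrays left out), kept their sign in every alternative that gave a value. The immunoglobulin median was -0.45 with dim probe sets left out and -0.31 with array weights; 16 of 44 probe sets were lower and 1 higher at an unadjusted p below 0.05, against 3.23% and 5.55% of all probe sets, once those of the Igk locus and of several segments were added. With 3 arrays per genotype, the interval was wide for some members. That of Ms4a1, among the widest, spanned -0.52 to 0.65, while that of Tnfrsf13b spanned -0.20 to 0.14.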

Other observations

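Further immunoglobulin signal came from probe sets outside the count of 27, a grouping chosen after the data were seen. All 13 probe sets annotated to several immunoglobulin segments had negative differences, from -0.80 to -0.071, with a median of -0.26. One of them that includes the kappa constant gene had wild type values of 13.61 to 13.67 and HDAC9-/- values of 13.41 to 13.49. The 4 probe sets annotated to the Igk locus alone did not share that sign. Their differences ran from -0.092 to 0.68, and the one at 0.68 had wild type values of 7.39 to 7.72 and HDAC9-/- values of 8.03 to 8.64, higher without overlap.

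Genes of B cell precursors, all dimmer than the median probe set, gave no common sign, with 2 of 5 positive. Dntt, the enzyme that adds bases at immunoglobulin and T cell receptor joints, differed by 0.56 and the surrogate light chain gene Vpreb1 by -0.34, and neither passed (limma, adjusted p = 0.498 and 0.539). Of 3 measured germinal centre genes none passed; Bcl6, the factor of germinal centre B cells and follicular helper T cells, differed by -0.22. Red cell and platelet genes had a median of -0.082 over 7 genes.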
